A study of Homo sapiens with 8 samples.

Results

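The genes described here encode short non-coding RNAs and the RNAs of small ribonucleoprotein machines: the spliceosomal small nuclear RNAs (RNU genes and U1), the 7SL and 7SK RNAs with their copies, box C/D and H/ACA small nucleolar RNAs (SNORD, SNORA, U3), small Cajal body RNAs (SCARNA), RMRP, RPPH1 and the mitochondrial ribosomal RNAs MT-RNR1 and MT-RNR2. They were chosen by gene symbol alone, host genes of the SNHG type left out, and 83 of the 19709 genes listed in any of the 3 expression tables matched. Of these, 74 were listed in the table for MS8815, 45 in the table for EPZ-6438 and 49 in the table for MS8815N, and 37 were listed in all 3. RNA-seq was run on SUDHL6, an established human diffuse large B-cell lymphoma line, after 18 h in DMSO (the vehicle), in MS8815 (a PROTAC that targets the histone methyltransferase EZH2 for degradation), in EPZ-6438 (tazemetostat, an inhibitor of EZH2 catalysis) or in MS8815N (an analog of MS8815 that is not a PROTAC), each at 2.5 µM. Each group had 2 libraries, all of the same line. The labels call them duplicates without naming a culture for each, so p-values rest on variation among these libraries only, and that variation may be technical.

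By way of background, small nuclear RNAs pair with splice sites and with each other inside the spliceosome, and most of them are made by RNA polymerase II and carry a ring of Sm proteins. Small nucleolar RNAs guide chemical marks onto ribosomal RNA, small Cajal body RNAs do so on small nuclear RNAs, and in human cells most of both are cut out of the introns of host genes. RNA polymerase III makes 7SL RNA, the core of the signal recognition particle that delivers secretory proteins to the endoplasmic reticulum, 7SK RNA, which holds the elongation factor P-TEFb inactive, RMRP, the RNA of RNase MRP, and RPPH1, the RNA of RNase P. Nearly all of these mature RNAs lack the poly(A) tail of an mRNA, while the mitochondrial ribosomal RNAs end in short A tracts. EZH2 is the catalytic subunit of Polycomb repressive complex 2, and germinal-centre lymphomas are known to depend on it.

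The sequences that matter for reading the counts are those of copies that short reads cannot tell apart. All sequences are from the GENCODE 29 transcripts (build GRCh38), 5′ to 3′ and written as DNA, and 79 of the 83 symbols matched that annotation; 7SK, SNORA74, U1 and U3 did not. RNU1-1, RNU1-2, RNU1-3, RNU1-4, RNU1-27P and RNU1-28P encode U1, the RNA that recognises the 5′ splice site, and all 6 have 1 and the same sequence of 164 bases. It is shown for RNU1-28P (chr14:34556226-34556389, minus strand), with the stretch that pairs with the 5′ splice site and the Sm site in capitals.
RNU1-28P: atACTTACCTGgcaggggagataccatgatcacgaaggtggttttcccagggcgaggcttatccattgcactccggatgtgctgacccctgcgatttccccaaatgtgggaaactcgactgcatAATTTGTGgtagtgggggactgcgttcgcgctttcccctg
RNU12 (chr22:42615244-42615393, plus strand) encodes U12, the branch-site RNA of the minor spliceosome, and its Sm word is in capitals.
RNU12: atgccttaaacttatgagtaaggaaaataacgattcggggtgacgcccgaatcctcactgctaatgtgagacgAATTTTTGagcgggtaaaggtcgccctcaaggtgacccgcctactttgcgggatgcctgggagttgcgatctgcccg
RNU4-1 (chr12:120293097-120293237, minus strand) and RNU4-2 (chr12:120291763-120291903, minus strand) encode U4, the partner that keeps U6 inactive. They were 97.2% identical over 141 bases, and capitals mark the 4 bases at which they differ.
RNU4-1: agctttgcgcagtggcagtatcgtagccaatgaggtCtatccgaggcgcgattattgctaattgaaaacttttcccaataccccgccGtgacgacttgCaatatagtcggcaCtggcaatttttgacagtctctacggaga
RNU4-2: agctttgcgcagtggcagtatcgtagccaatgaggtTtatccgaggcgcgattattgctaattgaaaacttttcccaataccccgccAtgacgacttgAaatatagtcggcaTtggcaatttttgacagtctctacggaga
All 17 RNU genes held 1 of the words AATTTGTG, GATTTTTG, AATTTTTG and AATTTTTTG (2 of which overlap in part), searched on the transcript strand only. Of all 5576 annotated transcripts of 100 to 200 bases, 8.1% held such a word, and of the 1576 snRNA transcripts among them 26.9% did. The words searched are those that the RNU members hold, so these shares are no test of enrichment.

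The 7SL genes show a graded likeness. RN7SL1 and RN7SL2 were 98.3% identical, and the copy RN7SL138P, listed in all 3 tables, was 78.4% identical to RN7SL1.

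Among small nucleolar RNAs, SNORD118 (chr17:8173454-8173587, minus strand) encodes U8, a C/D RNA needed for processing of the large ribosomal subunit RNAs; the C box word TGATGA and the final D box CTGA are in capitals. SNORA63 (chr3:186787300-186787431, plus strand) is an H/ACA RNA, with its ACA near the 3′ end in capitals.
SNORD118: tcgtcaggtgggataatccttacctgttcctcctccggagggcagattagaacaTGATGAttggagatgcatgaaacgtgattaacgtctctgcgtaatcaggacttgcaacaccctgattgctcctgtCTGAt
SNORA63: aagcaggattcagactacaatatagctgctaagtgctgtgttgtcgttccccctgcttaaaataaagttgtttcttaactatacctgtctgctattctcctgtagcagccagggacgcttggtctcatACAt

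Some features of the libraries bear on every result below. The values are normalised counts, obtained by undoing the variance-stabilising transform of the deposited tables, and each table was scaled by the authors on its own. Judged from the spacing of the lowest values, depth was 26.0 to 34.1 M reads (M, 1e6) in the DMSO, EPZ-6438 and MS8815N libraries and 13.0 and 14.6 M in the MS8815 libraries. The labels name 2 library kits without saying which library used which, and the RNA was extracted on a silica column of a kind known to keep short RNAs poorly. All 8 B-cell markers fixed for the line (MS4A1, CD79A, CD79B and others) were present in every library, and their summed normalised count was 83245 and 83819 with DMSO against 43429 and 43347 with MS8815. All 12 adherent-cell markers (keratins, collagens, fibronectin and others) were also present in each library of that table, none at 0, with a sum of 1365 and 1080 with DMSO and of 19993 and 21036 with MS8815. Of the 6 T or NK cell markers, 3 were in the table, with a sum of 27.1 to 50.03 in its 4 libraries. What the depth, the kits or the adherent-cell genes contribute to the differences below was not tested, and in such bulk samples fewer cells of a type and less RNA per cell cannot be told apart.

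The summed share of these RNAs was higher in both MS8815 libraries than in the other 6. All members together made up 0.468% and 0.466% of all normalised counts in the DMSO libraries and 7.69% and 7.96% in the MS8815 libraries. The mitochondrial ribosomal RNAs took most of this, going from 0.367% and 0.370% to 6.01% and 6.28%, and 7SL RNA was next, going from 0.0896% and 0.0854% to 1.48% and 1.51%. With EPZ-6438 the share of all members was 0.519% and 0.527%, and with MS8815N it was 0.609% and 0.625%. These 6 libraries lay far below the MS8815 libraries, but their groups did not overlap, with DMSO lowest, EPZ-6438 next and MS8815N highest. No test was made of these shares.

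**Figure D1:**
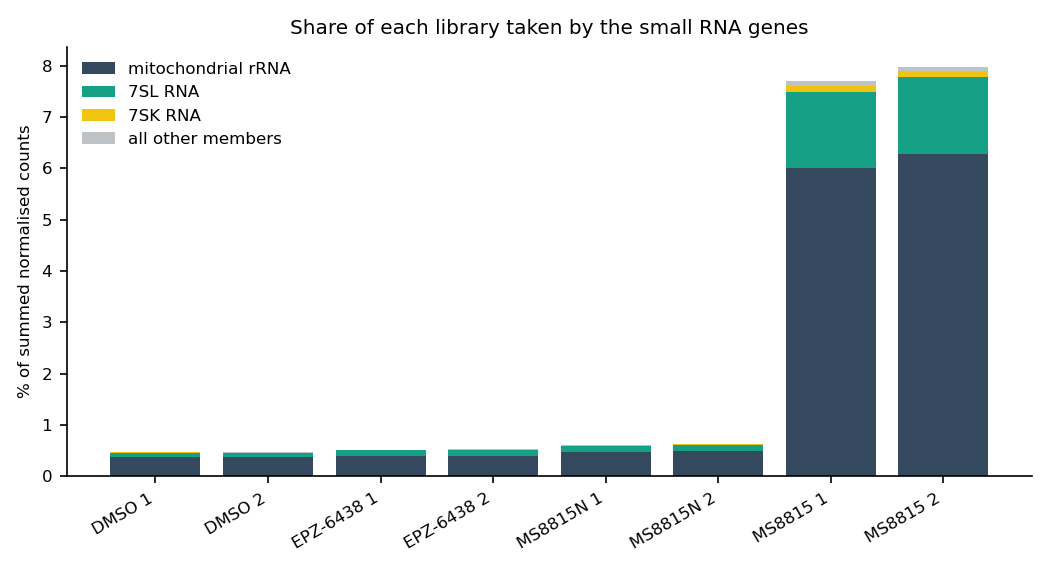
Share of the summed normalised counts of each library taken by the small RNA genes, as stacked bars by class, with the DMSO libraries taken from the table for MS8815. The bars reach 7.69% and 7.96% with MS8815 and stay between 0.466% and 0.625% in the other 6 libraries.

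No table lists a gene whose summed normalised count is under 5.82, 7.87 or 6.37 (MS8815, EPZ-6438 and MS8815N tables), so a gene listed for MS8815 alone had to be high there; the 31 members of that kind, and 6 more listed in 1 other table, are given as values and support no count. Among the 37 members in all 3 tables, 24 rose with MS8815 and 0 fell (limma, Benjamini-Hochberg adjusted p under 0.05 over all 18744 genes of the table). Over all genes 24.5% rose and 22.4% fell. The median log2 fold change, on the log2(normalised count + 1) scale used throughout, was 3.43 for the 37 members, with a range of -0.96 to 6.75, and -0.0001 for all genes. For 31 of the 37 both MS8815 libraries lay above both DMSO libraries, against 37.9% of all genes. Fewer members, and fewer of all genes, rose when either DMSO replicate was left out.

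**Figure D2:**
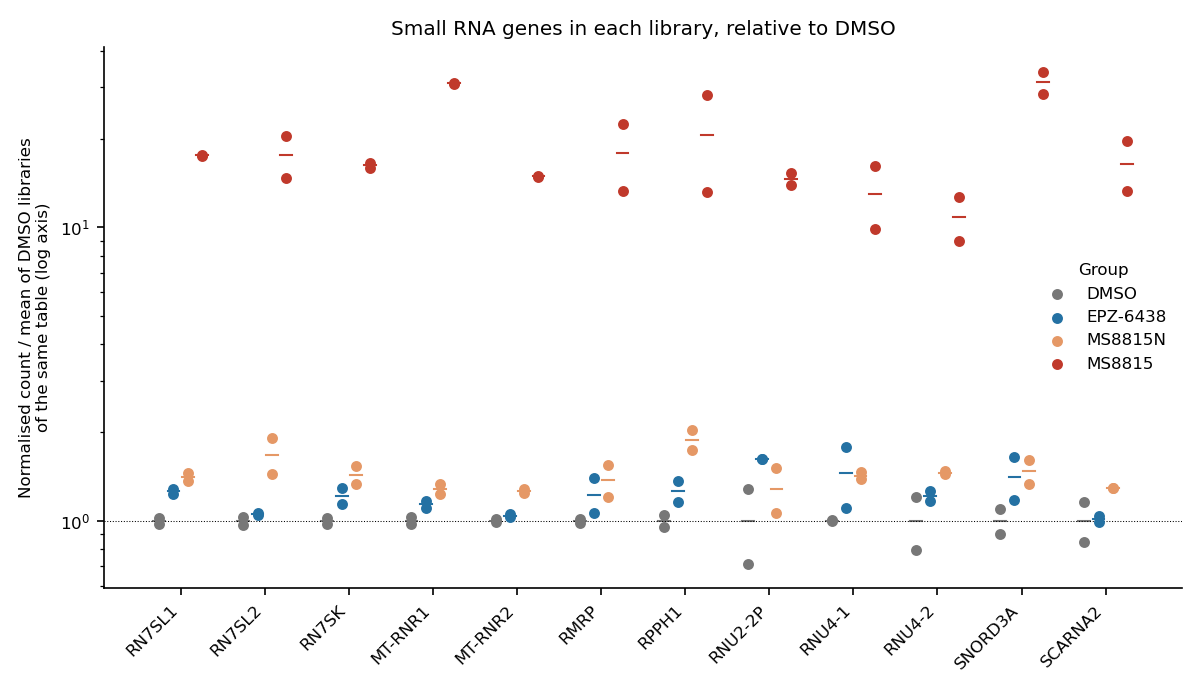
Normalised count of 12 members in each of the 8 libraries, divided by the mean of the DMSO libraries of the same table, on a log axis; points are libraries and short lines are group means. The MS8815 points lie apart from all others for each of the 12 genes, and MS8815N and EPZ-6438 lie near the DMSO points. All 12 are among the 24 members that rose with MS8815, and none of the 13 that did not pass is shown.

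7SL RNA was the most abundant of these RNAs per base. RN7SL1 had 17045 and 16238 normalised counts with DMSO and 291080 and 294706 with MS8815, a log2 fold change of 4.14 (SE 0.03, adjusted p 4.54e-07, limma). RN7SL2 had 1161 and 1240 against 24623 and 17639, a log2 fold change of 4.12 (SE 0.15, adjusted p 0.000114). The groups did not overlap for either gene, and the MS8815 libraries agreed more closely for RN7SL1 than for RN7SL2. The ratio of RN7SL2 to RN7SL1 was 0.068 and 0.076 with DMSO and 0.085 and 0.060 with MS8815, so the split between these near-identical copies overlapped between groups. Per base, RN7SL1 stood at 55.7 normalised counts with DMSO and 980 with MS8815, the highest level of any member in either group.

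Copies of 7SL behaved unevenly. RN7SL4P, listed for MS8815 only and 84.1% identical to RN7SL1, had 0.66 and 0.65 against 57.2 and 81.9 normalised counts. RN7SL138P had 5.96 and 6.55 with DMSO and 8.17 and 1.41 with MS8815, a log2 fold change of -0.62 (SE 0.83, adjusted p 0.665, limma). RN7SL832P, annotated as a longer transcript, had 17.78 and 22.02 against 3.30 and 25.6, a log2 fold change of -0.96 (SE 0.89, adjusted p 0.519). For both of these copies the DMSO values fell between the MS8815 values. Without MS8815 replicate 2, RN7SL832P was called lower (log2 fold change -2.27, adjusted p 0.031). Both copies lie far below RN7SL1, and 1 read was worth 1.65 and 1.42 normalised counts in the MS8815 libraries.

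7SK RNA rose by nearly the same factor as 7SL. RN7SK (chr6:52995621-52995948, GRCh38) had 1335 and 1399 normalised counts with DMSO and 21838 and 22743 with MS8815, a log2 fold change of 4.03 (SE 0.05, adjusted p 2.04e-06, limma). A separate row under the symbol 7SK, not matched to the annotation, had 104.8 and 0 with DMSO and 1184 and 1030 with MS8815 (adjusted p 0.00105). Its DMSO libraries disagree, and the row missed the threshold with quantile normalisation (adjusted p 0.0543) and with a pseudocount of 0.1 (adjusted p 0.082). The copies RN7SKP203 and RN7SKP255 were listed for MS8815 only, at 17.5 ± 13.2 and 7.17 ± 6.12 normalised counts (SD, n = 2), and RN7SKP23 was at 1.32 and 2.59 against 1.65 and 5.68, with overlapping groups. Reads of these copies cannot be separated with certainty from those of RN7SK, to which RN7SKP203 was 83.1% identical and RN7SKP255 82.3%.

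U1 genes were higher in both MS8815 libraries than in both DMSO libraries. The 6 identical RNU1 genes, whose sequence is printed above, were each listed at 0 in both DMSO libraries of that table, and together they had 2725 and 1843 normalised counts with MS8815. Single copies ranged from 207 (RNU1-3 in 1 library) to 614 (the same gene in the other), which is how reads of 1 sequence were divided among 6 rows rather than 6 measurements. These rows are in the table through their MS8815 values alone and support no count. Each of the other tables listed 1 copy: RNU1-4 at 194 in 1 EPZ-6438 library and 0 in the other 3 libraries, and RNU1-1 at 395 in 1 MS8815N library and 0 in the other 3. The row under the symbol U1 had 134.6 and 11.3 with DMSO and 1176 and 1191 with MS8815, a log2 fold change of 4.86 (SE 1.03, adjusted p 0.000534, limma). Its DMSO values differ widely between replicates, yet both lie far below the MS8815 values.

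Genes of U2, U4, U5 and the minor spliceosome were among those that rose. RNU2-2P, a U2 gene whose RNA recognises the branch site, had 45.2 and 25.1 normalised counts with DMSO and 539 and 492 with MS8815, a log2 fold change of 3.89 (SE 0.30, adjusted p 8.41e-05, limma). RNU4-1 had 59.8 and 59.1 against 961 and 588 (log2 fold change 3.64, SE 0.25), and RNU4-2 had 56.5 and 85.6 against 906 and 640 (log2 fold change 3.43, SE 0.26). Both U4 genes rose, with no overlap of groups, and the ratio of RNU4-1 to RNU4-2 was 1.06 and 0.69 with DMSO and 1.06 and 0.92 with MS8815. U5 holds the exon ends during splicing, and its gene RNU5A-1 had 2.66 and 1.33 against 43.6 and 26.6 (log2 fold change 3.59, adjusted p 0.00535). RNU5E-6P rose as well (log2 fold change 2.85, adjusted p 0.0162), while RNU5B-1, 94.0% identical to RNU5A-1, had 3.98 and 5.33 against 12.9 and 22.4 and missed the threshold (adjusted p 0.0669). RNU5B-1 passed with B-cell scaling (adjusted p 0.00708), with a pseudocount of 10 (adjusted p 0.0432) and without MS8815 replicate 1 (adjusted p 0.0264). Without DMSO replicate 1 or 2, RNU5A-1 (adjusted p 0.0731 and 0.0892) and RNU5E-6P (adjusted p 0.134 in both cases) missed the threshold, the latter also with quantile normalisation (adjusted p 0.0595). In the minor spliceosome, RNU12 had 7.60 and 0.15 against 200 and 135 (log2 fold change 5.71, SE 0.95, adjusted p 0.00088), and RNU11, listed for MS8815 and MS8815N, had 1.99 and 1.33 against 51.9 and 30.8.

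The catalytic RNAs of RNase MRP and RNase P rose too. RMRP (chr9:35657751-35658018) had 274 and 266 normalised counts with DMSO and 6083 and 3583 with MS8815, a log2 fold change of 4.11 (SE 0.23, adjusted p 0.000687, limma). RPPH1 (chr14:20343075-20343407) had 55.6 and 50.8 against 1500 and 702, a log2 fold change of 4.25 (SE 0.35, adjusted p 0.00269). For both RNAs the first MS8815 replicate was the higher one, with DMSO replicates close to each other. Without DMSO replicate 1 or 2, RPPH1 missed the threshold (adjusted p 0.0686 and 0.0705).

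The mitochondrial ribosomal RNAs, the scaffolds of the small (MT-RNR1) and large (MT-RNR2) mitoribosomal subunits, rose unequally. MT-RNR1 (chrM:648-1601) had 10922 and 10352 normalised counts with DMSO and 326999 and 331759 with MS8815, a log2 fold change of 4.95 (SE 0.03, adjusted p 3.71e-07, limma). MT-RNR2 (chrM:1671-3229) had 63764 and 65457 against 957953 and 970526, a log2 fold change of 3.90 (SE 0.02, adjusted p 2.04e-06). Per base, the ratio of MT-RNR1 to MT-RNR2 was 0.280 and 0.258 with DMSO and 0.558 and 0.559 with MS8815. It was 0.290 and 0.298 with EPZ-6438 and 0.268 and 0.280 with MS8815N, so the ratio stood apart in the MS8815 libraries alone among the 8; no test was made of it. The 13 mitochondrial mRNAs all rose with MS8815, but their median log2 fold change was 1.65. MT-ND2 was at 2.69 and MT-ND1 at 2.19 (limma, adjusted p 2.49e-06 and 2.98e-06), both genes of complex I subunits.

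Among box C/D RNAs in all 3 tables, 3 of 6 rose. SNORD3A, which encodes U3, the RNA that directs early cleavage of the ribosomal RNA precursor, had 106 and 129 normalised counts with DMSO and 3998 and 3354 with MS8815, a log2 fold change of 4.96 (SE 0.14, adjusted p 2.2e-05, limma). Its copy SNORD3B-2 had 5.27 and 9.73 against 97.3 and 89.4 (log2 fold change 3.52, adjusted p 0.000723), and SNORD17 had 11.9 and 7.89 against 61.9 and 49.3 (log2 fold change 2.39, adjusted p 0.00472). SNORD17 missed the threshold with DMSO replicate 1 or 2 left out (adjusted p 0.0652 and 0.0859) and with quantile normalisation (adjusted p 0.0787). SNORD3B-1, another U3 copy, had 3.95 and 11.7 against 34.6 and 12.8, without overlap but with an adjusted p of 0.162 (0.0289 with B-cell scaling). Counts are shared among U3 copies in an unknown way, since reads of repeated genes can be assigned to any of them. SNORD118, listed for MS8815 only and printed above, was at 0 in both DMSO libraries and at 111 and 83.9 with MS8815.

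Of 6 H/ACA RNAs in all 3 tables, 3 rose. SNORA73A and SNORA73B, the U17 RNAs of pre-ribosomal RNA cleavage, lie in introns of RCC1 and were 93.2% identical. SNORA73A had 6.68 and 0 normalised counts with DMSO and 141 and 73.5 with MS8815 (log2 fold change 5.21, SE 1.00, adjusted p 0.00362, limma), and SNORA73B had 9.96 and 9.89 against 138 and 56.2 (log2 fold change 3.03, SE 0.50, adjusted p 0.013). SNORA73B missed the threshold with either DMSO library left out (adjusted p 0.14), and SNORA73A without DMSO replicate 2 (adjusted p 0.0753). SNORA11 had 0.66 and 3.997 against 14.6 and 12.6 (log2 fold change 2.33, adjusted p 0.0457), and missed the threshold when any 1 of the 4 libraries was left out (adjusted p 0.0823 to 0.264), with no trend (adjusted p 0.0627), with quantile normalisation (adjusted p 0.236, log2 fold change 1.22) and with a pseudocount of 0.1 (adjusted p 0.0735). SNORA63 and SNORA81, both in introns of EIF4A2 and not listed in the other tables, had 0.66 and 3.99 against 165 and 97.8, and 0 and 1.12 against 53.3 and 36.8. SNORA59B was at 68.4 in 1 MS8815 library and 0 in the other, with 1.89 and 1.07 in DMSO, so the groups overlapped; without the library at 0, MS8815 replicate 2, it was called higher (adjusted p 0.0078).

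Small Cajal body RNAs gave 3 that rose of 6 in all 3 tables. SCARNA2 had 20.5 and 15.0 normalised counts with DMSO and 348 and 236 with MS8815 (log2 fold change 3.96, SE 0.31, adjusted p 0.000525, limma), and SCARNA10 had 5.95 and 4.57 against 126 and 115 (log2 fold change 4.28, SE 0.36, adjusted p 0.000282). SCARNA7, named to complete the count after its values were seen, had 0 and 2.62 against 23.0 and 8.50 (log2 fold change 2.99, adjusted p 0.0451), and missed the threshold with quantile normalisation (adjusted p 0.144) and when any 1 of the 4 libraries was left out (adjusted p 0.0531 to 0.29). SCARNA12, in an intron of PHB2, had 18.5 and 12.5 against 19.6 and 19.8 (log2 fold change 0.35, 95% interval -0.73 to 1.43, called higher only with B-cell scaling, adjusted p 0.0392), and SCARNA15 had 21.1 and 15.5 against 6.61 and 21.3 (log2 fold change -0.55, 95% interval -2.13 to 1.03). In the DMSO libraries SCARNA12 and SCARNA15 were thus at about the level of SCARNA2, and with MS8815 they were far below it.

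The 13 members in all 3 tables that did not pass the test with MS8815 were RN7SL138P, RN7SL832P, RN7SKP23, RNU5B-1, SNORD3B-1, SNORD15B, U3, SNORA23, SNORA59B, SNORA71B, SCARNA9, SCARNA12 and SCARNA15, named here whatever their values. Of these, 10 had a positive and 3 a negative log2 fold change.

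**Figure D3:**
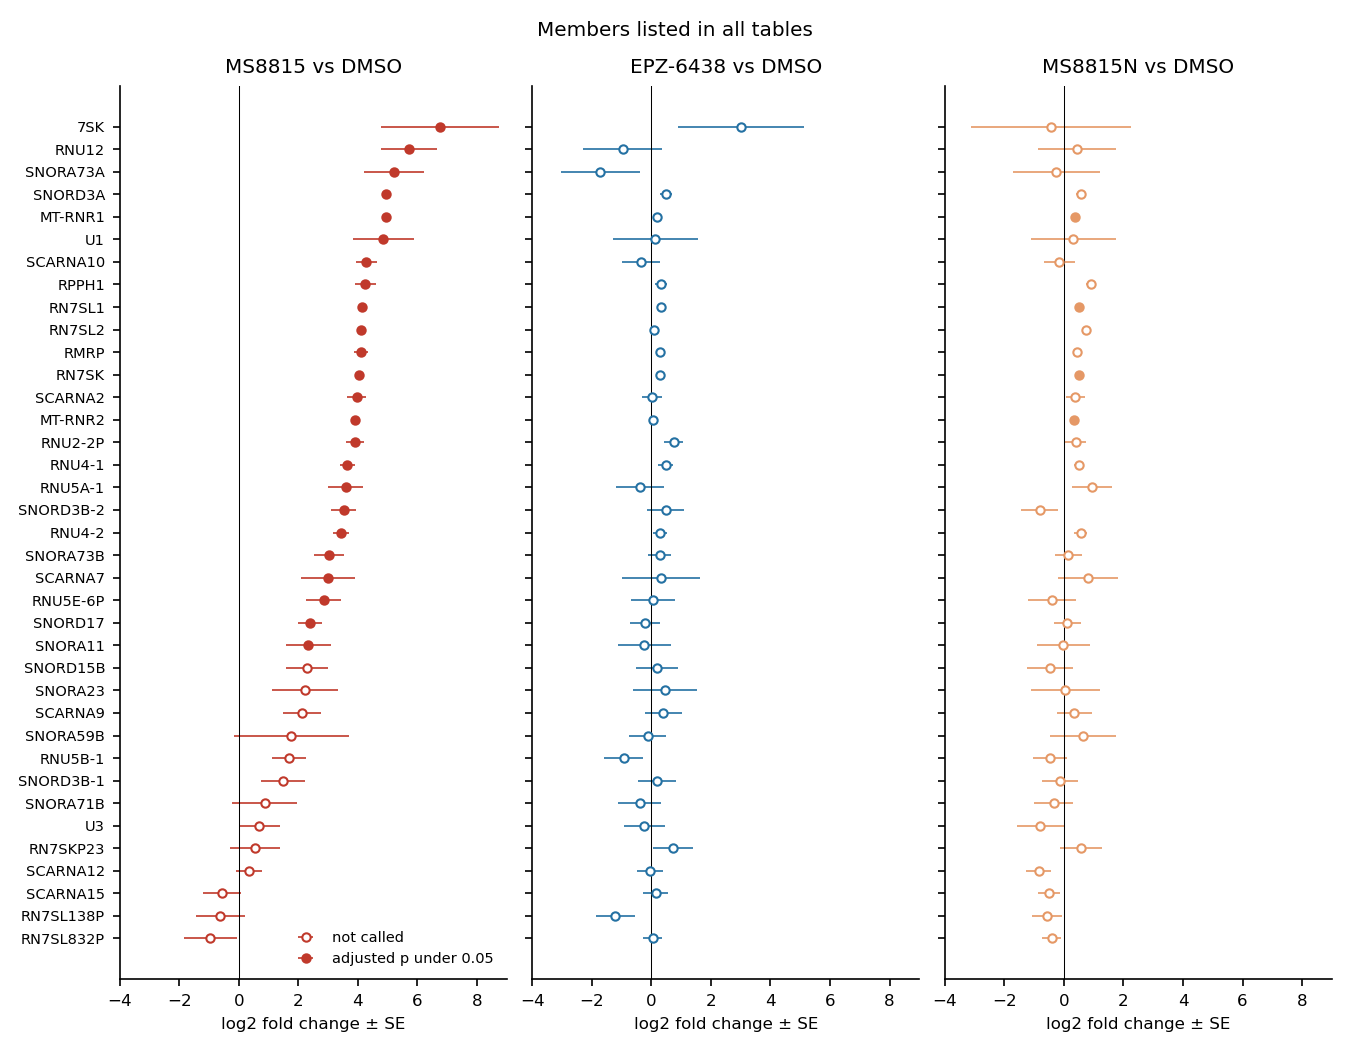
Log2 fold change with its standard error of the 37 members in all 3 tables, for each compound against DMSO, in the order of the MS8815 values; filled points passed the test at an adjusted p under 0.05. The MS8815 panel runs from -0.96 to 6.75 with 24 filled points, the EPZ-6438 panel has none and the MS8815N panel has 4.

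Most snoRNA and scaRNA genes lie inside a host gene, whose mRNA or long non-coding RNA comes from the same transcript. For 14 of the 37 members a same-strand host was measured, 12 of them intronic and 2 overlapping an exon. Of these 14 small RNAs, 8 rose with MS8815 (median log2 fold change 2.36), while of their 13 distinct hosts 1 rose, 6 fell and 6 did not pass the test (median -0.27). In 5 cases a small RNA that rose sat in a host that fell: SNORA73A and SNORA73B in RCC1 (the exchange factor for Ran, -0.51, SE 0.06, adjusted p 0.00135, limma), SCARNA10 in NCAPD2 (a condensin subunit, -0.49), SCARNA7 in KPNA4 (an importin, -0.63) and SNORD17 in SNX5 (a sorting nexin, -0.50). The log2 fold change of the small RNA was above that of its host in 13 of the 14 pairs, the exception being SNORA59B in SLC47A1 (3.73, SE 0.65, adjusted p 0.00638). EIF4A2, the host of SNORA63 and SNORA81, had a log2 fold change of -0.09 (adjusted p 0.218). Of the 19 members in all 3 tables that lie in any annotated same-strand gene 12 rose, and of the 15 that do not 10 rose. Reads from an intron and from a small RNA within it may not be told apart in these tables, and host directions rest on the authors' scaling, as given below for the partner proteins.

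**Figure D4:**
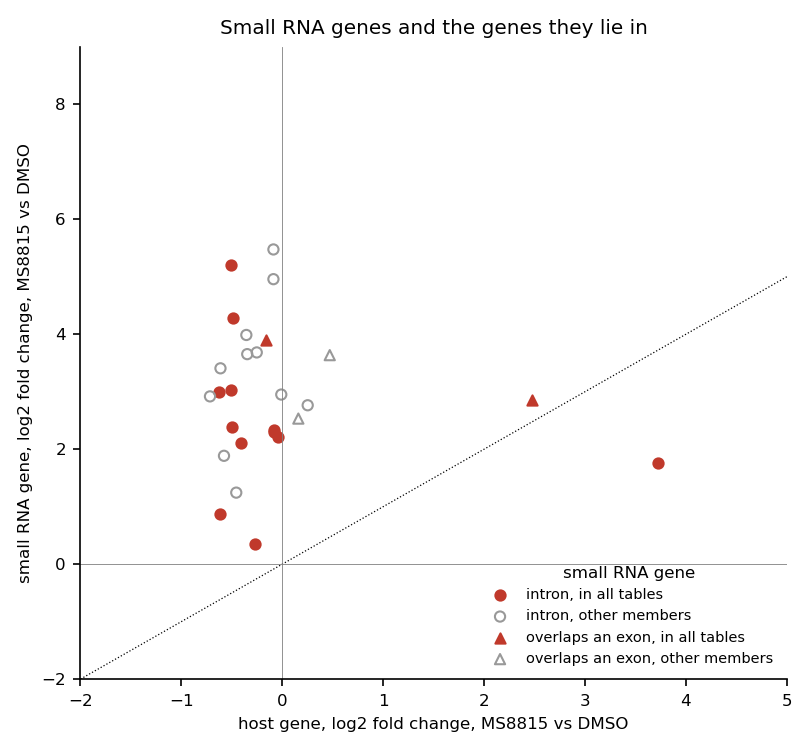
Log2 fold change with MS8815 of small RNA genes (vertical) against that of the gene they lie in (horizontal), for 27 pairs; 10 more pairs, whose small RNA was listed at 0 in both DMSO libraries, are left out, and the dotted line marks equality. The 14 filled points are members in all 3 tables, of which 13 lie above the line. Open points are other members, mostly listed for MS8815 alone, where they had to be high, and they support no count.

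Few genes for the protein partners of these RNAs rose with MS8815. Of all genes 24.5% rose and 22.4% fell. Of the 9372 genes left after removing the lower 50%, 1752 rose and 4030 fell, with a median log2 fold change of -0.19. Where a list below lies near these shares, its count is no result about the partners. On the authors' scale, 34 of 36 genes for Sm and U1, U2, U4/U6 and U5 proteins fell with MS8815 and 0 rose (median log2 fold change -0.41), among them SNRNP200 (-0.51), PRPF8 (-0.41) and SNRPD1 (-0.70), with adjusted p of 0.000154, 0.000186 and 0.000219 (limma). All 17 measured genes for box C/D and H/ACA snoRNP proteins fell (median -0.60), including NOP56, a C/D core protein (-0.67). For the signal recognition particle 5 of 8 fell and 0 rose (median -0.24), with SRP54, its GTPase, at -0.54. For 7SK snRNP and P-TEFb 5 of 10 fell and 1 rose, HEXIM1, the P-TEFb inhibitor that 7SK carries, by 1.08 (SE 0.11, adjusted p 0.00107). For RNase P and MRP proteins 6 of 11 fell and 1 rose, RPP25, by 1.89 (SE 0.21, adjusted p 0.000921). Of 24 genes for RNA polymerase III and its factors, 13 fell and 1 rose (median -0.35), SSB, the La protein that binds new polymerase III transcripts, being at -0.54. Of 25 genes for snRNA transcription and 3′ processing, 12 fell and 3 rose (median -0.30), with the Integrator subunit INTS9 at -0.97. Of 17 genes for snRNP assembly 11 fell and 2 rose, of 8 for the minor spliceosome 4 fell and 0 rose, and of 39 snoRNA host genes 16 fell and 3 rose (median -0.22), NCL being at -0.88.

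The direction of these partner lists turned with the scaling, and the median of the small RNAs stayed above 0. Scaling the libraries to the 23 B-cell genes moved the median of all genes to 0.94 and quantile normalisation moved it to -0.20. Relative to that median, the 37 members were at 3.42 and 2.28, with 29 and 19 that rose and 0 that fell under both. Of all genes 72.0% rose and 0.811% fell with B-cell scaling, and 19.8% rose and 28.0% fell with quantile normalisation. With B-cell scaling 35 of 36 snRNP protein genes and 14 of 17 snoRNP protein genes rose and 0 fell, and relative to the median of all genes they were at -0.38 and -0.57. With quantile normalisation 19 of 36 and 14 of 17 fell, at 0.03 and -0.12 relative to that median.

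Other lists are set beside the small RNAs here. Adherent-cell genes had a median log2 fold change of 3.98 with MS8815, and 31 of 33 rose, such as S100A6 (4.05), AXL (4.05) and CYR61 (4.10). Their largest value was 4.44. Beside them, RN7SL1 was at 4.14, RN7SK at 4.03 and MT-RNR2 at 3.90, while MT-RNR1 was at 4.95, SNORD3A at 4.96 and SNORD17 at 2.39. The 37 members ranged from -0.96 to 6.75. Of 56 replication-dependent histone genes, whose mRNAs also lack poly(A) tails, 29 rose and 0 fell (median 1.41), HIST3H2A by 4.03. Of 7 nuclear long non-coding and telomerase RNAs 2 rose, MALAT1 by 2.55 and NEAT1 by 2.93, and 5 did not pass the test (median 0.61). That is 28.6%, near the 24.5% of all genes that rose, while 22.4% of all genes fell. Of 23 B-cell genes 21 fell and 1 rose (median -0.91), MS4A1, the gene of CD20, being at -1.29. The lists were chosen with earlier results of these data known, and their part in the rise of the small RNAs was not tested.

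**Figure D5:**
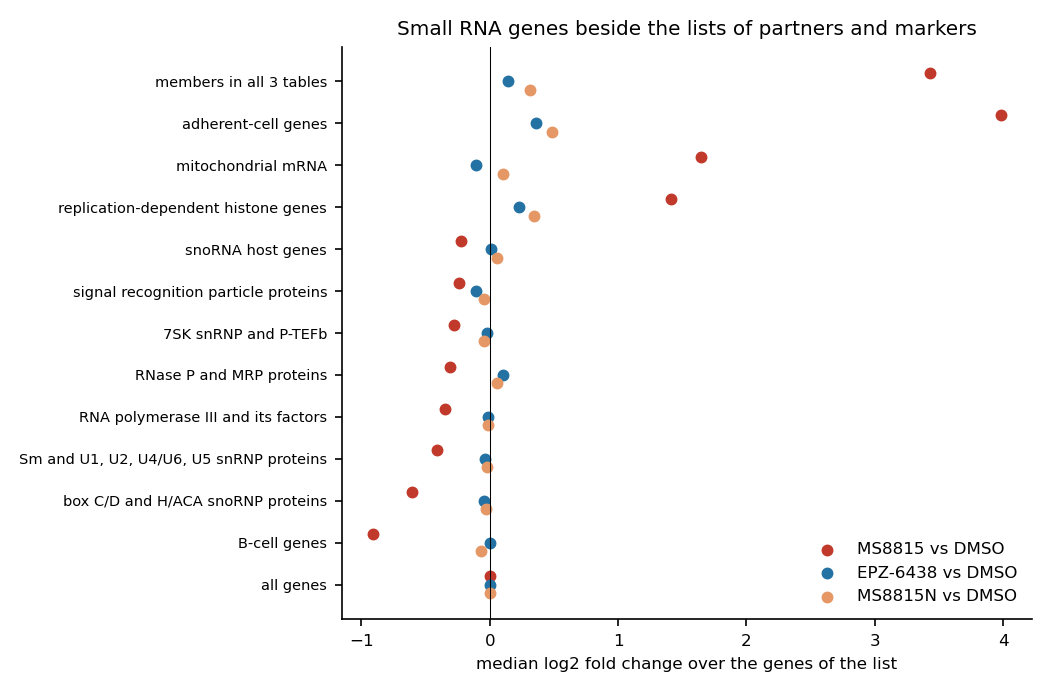
Median log2 fold change of the 37 members, of the partner and marker lists and of all genes, for each compound against DMSO on the authors' scale. With MS8815 the members (3.43) and the adherent-cell genes (3.98) lie far to the right, the partner lists lie between -0.60 and -0.22, and B-cell genes are at -0.91.

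EPZ-6438 changed none of these genes past the threshold. Of the 37 members, 0 rose and 0 fell (limma, adjusted p), where 0.0164% of all 18320 genes rose and as many fell; 5 of the 37 had an unadjusted p under 0.05, and the median log2 fold change was 0.14, with 0.0059 for all genes. For 12 members both EPZ-6438 libraries lay above both DMSO libraries, against 24.3% of all genes, and for 2 below. How many of all genes lay below was not counted. RN7SL1 came closest to the threshold: it had 25008 and 23676 normalised counts with DMSO and 31282 and 29978 with EPZ-6438, a log2 fold change of 0.33 (95% interval 0.25 to 0.41, adjusted p 0.0548). The groups did not overlap, and the adjusted p was 0.021 to 0.0367 under 5 of the 12 other settings tried and 0.0536 to 0.4 under the rest. RN7SK was at 1961 and 2042 against 2287 and 2579 (log2 fold change 0.28, adjusted p 0.136). MT-RNR2 was at 94097 and 95999 against 97492 and 100225 (0.06, adjusted p 0.297), MT-RNR1 had a log2 fold change of 0.18 (adjusted p 0.111) and SNORD3A one of 0.48 (95% interval 0.01 to 0.95, adjusted p 0.303). In the same comparison the median of the adherent-cell genes was 0.36, with 0 of 30 that passed, and their marker sum went from 1978 and 1564 to 2315 and 2190.

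MS8815N raised 4 of the 37 members and lowered 0 (limma, adjusted p), where 0.288% of all 18398 genes rose and 0.245% fell; the median log2 fold change was 0.31, with 0.0043 for all genes. RN7SL1 had 26785 and 25361 normalised counts with DMSO and 37842 and 35742 with MS8815N, a log2 fold change of 0.50 (SE 0.04, adjusted p 0.00557). RN7SK had 2098 and 2185 against 2862 and 3279, a log2 fold change of 0.52 (SE 0.07), with an adjusted p that rounds to the threshold of 0.05 and lies just under it. MT-RNR2 had 99939 and 101967 against 125441 and 129530 (log2 fold change 0.34, SE 0.02, adjusted p 0.00443), and MT-RNR1 had 17124 and 16133 against 20559 and 22203 (log2 fold change 0.36, SE 0.04, adjusted p 0.0329). In all 4 genes both MS8815N libraries lay above both DMSO libraries. RN7SL2 went from 1824 and 1936 to 2711 and 3611 (log2 fold change 0.74, adjusted p 0.0766) and RPPH1 from 88.5 and 80.4 to 147 and 172 (0.91, adjusted p 0.0873), and neither passed; RN7SL2 did with B-cell scaling (adjusted p 0.0459) and with the lower 50% of genes removed (adjusted p 0.0425). Both libraries lay above both DMSO libraries for 12 of the 37, against 23.5% of all genes, and below for 6. The share of all genes that lay below was not counted. No member passed with any 1 of the 4 libraries left out, and nearly no gene of the table did. The log2 fold changes were then 0.46 to 0.54 for RN7SL1 and 0.419 to 0.615 for RN7SK. They were 0.31 to 0.36 for MT-RNR2 and 0.31 to 0.42 for MT-RNR1. The adherent-cell genes had a median log2 fold change of 0.48 here, 1 of 31 rose, and their marker sum went from 2048 and 1614 to 2873 and 2717; for mitochondrial mRNAs the median was 0.11, and 4 of 13 rose. Whether these small rises share a source with those genes was not tested. The 3 comparisons with DMSO share the same DMSO libraries.

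The compounds were also compared with each other at the same dose and time, after the tables were put on 1 scale through their shared DMSO libraries, in 3 pairs. The degrader MS8815 and its non-PROTAC analog MS8815N differed in 26 of the 37 members, all higher with MS8815 (limma over all 8 libraries, adjusted p over 17467 genes within the pair), against 24.2% of genes higher and 26.3% lower. The difference was 3.64 for RN7SL1 (95% interval 3.56 to 3.72, adjusted p 4.85e-10), 3.51 for RN7SK (3.33 to 3.69), 3.56 for MT-RNR2 (3.52 to 3.61) and 4.59 for MT-RNR1 (4.49 to 4.69). MS8815 and EPZ-6438 differed in 25 of the 37, again all higher with MS8815, against 24.2% and 26.3% of genes. That difference was 3.81 for RN7SL1 (95% interval 3.72 to 3.89), 3.75 for RN7SK (3.57 to 3.92) and 4.48 for SNORD3A (4.04 to 4.92). These values were read on the log2(normalised count + 1) scale and adjusted within each pair. With each adjusted p multiplied by the number of pairs, a step added after the data were seen, 22 members stayed higher with MS8815 than with MS8815N and 21 than with EPZ-6438; U1 (0.144 and 0.124), SCARNA9 (0.106 and 0.12) and SNORA11 (0.0806 and 0.0568) missed the threshold in both pairs, as did 7SK against MS8815N (0.118) and SNORD15B against EPZ-6438 (0.132).

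MS8815N and EPZ-6438 differed in 1 of the 37 members, against 0.166% of genes higher and 0.00573% lower; for 11 members both MS8815N libraries lay above both EPZ-6438 libraries, against 20.4% of genes. MT-RNR2 was higher with MS8815N by 0.28 (95% interval 0.23 to 0.32, adjusted p 0.00161, limma, and 0.00483 over the 3 pairs), and this call was lost when the prior variance had no trend (adjusted p 0.611). For RN7SL1 the difference was 0.17 (95% interval 0.08 to 0.25, adjusted p 0.255), for RN7SK 0.24 (0.06 to 0.41, adjusted p 0.614) and for MT-RNR1 0.18 (0.08 to 0.28, adjusted p 0.376). RNU4-1 differed by 0.01 (-0.64 to 0.66) and RMRP by 0.17 (-0.39 to 0.73). The intervals given for these RNAs lie below the differences between MS8815 and EPZ-6438 for the same genes. For the row U1 the interval was wide (-3.61 to 3.97), below the 4.75 by which MS8815 exceeded EPZ-6438, itself with a 95% interval of 0.96 to 8.54.

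The members without a value above add little. The other H/ACA, C/D and scaRNA genes listed for MS8815 lay at 40.9 normalised counts or lower in every library except SNORA48 at 50.8 in 1 MS8815 library. Some members, the 6 RNU1 genes included, were at 0 in both DMSO libraries of that table. They are listed there through their MS8815 values alone and support no count. The 9 members not listed for MS8815 were RN7SKP97, RN7SL172P, RN7SL608P, RN7SL738P, RN7SL809P, RN7SL834P, SNORA22, SNORD13 and SNORD97, none of which exceeded 8.82 normalised counts in any library.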

How the data were processed

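RNA-seq was measured in 8 SUDHL6 libraries, 2 per group. The deposited tables, 1 per compound with the shared DMSO libraries, hold log2-like variance-stabilised values that the authors made with DESeq2, per the table names. Per the submitters' processing notes, STAR 2.4.2 and Salmon were used with GRCh38; the annotation, strand setting and filters are not given in the sources used here. Groups come from the sample titles. The transform was undone from each table's lowest value to give normalised counts. Each compound was tested against DMSO within its table with limma 3.58.1 (R 4.3.3, with a mean-variance trend), taking the deposited values as they are, Benjamini-Hochberg adjusted over all genes, two-sided, threshold 0.05. Fold changes and SE come from limma on log2(normalised count + 1). For pairs of compounds the tables were joined: their DMSO libraries differed by 1 constant per library and gene, to within 7.04e-11 on the log2 scale over 17219 genes. With 2 against 2 libraries an exact permutation test could not reach the threshold, so no p is given for shares or ratios.

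Members were chosen by symbol. Named are up to 4 members per class with the highest mean in the MS8815 table, up to 4 with the highest mean among members in all 3 tables, every member called for EPZ-6438 or MS8815N, hosts of named members, and for each list up to 3 genes with the smallest p. The members, lists and rule were chosen with earlier results of these data known. Alternatives changed the test scale, the trend, the normalisation, the low-value filter, the pseudocount, the libraries used and a replicate block. Hosts, positions and sequences are from GENCODE 29.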

Additional observations from a re-analysis of the deposited data

How the results depend on the processing

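The number of the 37 members that rose with MS8815 was 19 to 29 with other scalings, pseudocounts and test scales. Over all genes it was 3704 to 13490 of 18744 with these settings. After removing the lower 50% of genes it was 13 of the 13 left, against 1752 of 9372 genes. That filter used the mean over all libraries of the table, MS8815 included. Members high with MS8815 passed it more easily, so 13 of 13 gives no support to the rise. Fewer members, and fewer of all genes, rose with either DMSO library left out. RN7SL832P reached -2.27 with MS8815 replicate 2 left out. With the lower 50% removed, 7 of 7 members were higher with MS8815 than with MS8815N, and 7 of 7 than with EPZ-6438. Of 8734 genes, 1506 and 1558 were. Here too the filter used a mean that includes the MS8815 libraries, so these counts give no support either. Most members stayed higher with MS8815 in both pairs with 1 library left out. Leaving out MS8815 replicate 2 added a lower member in both pairs. Quantile normalisation gave 2 lower against EPZ-6438, where 6034 of 17467 genes were lower. With EPZ-6438, 1 member (RN7SL1) rose with the test on log2(normalised count + 1), without trend, with the lower 50% removed, with a pseudocount of 10 and with the replicate block. With MS8815N, no member rose with any library left out, and nearly no gene of the table did. MS8815N against EPZ-6438 gave 0 without trend. A lone library left in a group was assumed to vary like the other groups. The cause of these changes was not tested, except that the low-value filter left fewer members.

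The replicate numbers did not pair the libraries: deviations of same-numbered libraries had correlations of -0.103 to 0.021 across 14185 genes. With the replicate block 23 of the 37 rose with MS8815 and 5 with MS8815N, where 4549 of 18744 and 115 of 18398 genes rose. Then 26 and 22 were higher with MS8815 than with MS8815N and EPZ-6438, against 4143 and 4154 of 17467 genes. MS8815N exceeded EPZ-6438 in 1 member and in 25 of 17467 genes. With this block SNORA11 lost its call with MS8815 (limma, adjusted p 0.0682) and RN7SL2 gained one with MS8815N (adjusted p 0.0139). Because EPZ-6438 and MS8815N deviations ran against each other, the crossed replicate block was added after seeing the data; it gave 1 member.

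Among the members checked, log2 fold changes that were not called changed sign in 29 cases. Only named members were checked, and not all of them in every comparison, so others may change sign too. Values with 1 library left out are given as a range. With MS8815 these were RN7SKP23 (-0.19 with quantile normalisation, -0.12 to 1.21), RN7SL138P (0.16 with B-cell scaling, -1.59 to 0.34), RN7SL832P (-2.27 to 0.35), SCARNA12 (-0.96 with quantile normalisation), SCARNA15 (0.35 with B-cell scaling, -1.33 to 0.22) and SNORA59B (-1.29 to 4.83). With EPZ-6438 they were 7SK (-0.63 to 6.65) and U1 (-0.018 with quantile normalisation, -1.83 to 2.10). With MS8815N they were 7SK (-4.12 to 3.24), RNU2-2P (-0.023 to 0.82) and U1 (-1.63 to 2.26). Between MS8815N and EPZ-6438 they were RMRP (-0.027 to 0.37), RNU4-1 (-0.33 to 0.36), SCARNA10 (-0.45 to 0.85), SNORA73B (-0.53 to 0.27), SNORD3A (-0.16 to 0.32) and U1 (-1.79 to 2.15). Depth limits members at a few reads most of all in the MS8815 libraries, where 1 read is worth 1.42 to 1.65 normalised counts.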
